A study of Solanum lycopersicum with 8 samples.

Results

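Neutralized phosphorous acid (NPA) was sprayed on tomato plants, and 87 of 8404 probe sets read higher in NPA than in water leaves at 12 h without reading higher at 6 h. They were chosen by their own values. In both 12 h pairs of arrays the NPA value exceeded the water value of the same repeat by at least 0.5 on the log2 scale, and in both 6 h pairs by less than 0.25. That limit at 6 h has no lower end, so a probe set that NPA leaves held at a lower level at 6 h could enter, and most did. NPA stood below water in both 6 h pairs for 66 of the 87 (36.1% of all probe sets), by 0.25 or more in both pairs for 44 (12.1% of all probe sets), and within 0.25 of water in both pairs for only 10 (41% of all). The set is therefore described here by its rule, as higher at 12 h and not higher at 6 h, and not as transcripts that were flat at 6 h and then rose.

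All groups were leaves of the cultivar Summer sweet. The groups were water at 6 h, NPA at 6 h, water at 12 h and NPA at 12 h after spraying, with 2 arrays each. Leaves of 5 plants were pooled for each Affymetrix Tomato Genome array, and the experiment was done in 2 repeats, each with 1 array per group. NPA was 1 g of phosphorous acid per litre brought to pH 6.3 with potassium hydroxide, and water was the control. Plant age is not given in the sources used here, and time after spraying ran together with the hour of the day.

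Phosphorous acid, in its neutral form phosphite, enters plants through phosphate transporters but does not replace phosphate in metabolism. It is used against oomycete diseases, which it hinders both directly and by way of plant defences.

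Values are log2 expression as deposited, so a difference of 1 is a doubling. Over all probe sets the arrays had medians between 8.77 and 8.83, and arrays of a group correlated between 0.968 and 0.987. Leaf identity was checked with chlorophyll a/b-binding protein genes. CAB4, CAB5 and CAB6A, the 3 of 12 leaf markers that could be matched, read between 13.67 and 14.17 on all 6 h arrays and between 8.05 and 12.40 at 12 h. Of the other markers, glandular trichome MTS1 and SSTLE1 and root RSI-1 were matched, and NPA minus water at 12 h was 0.21, 0.13 and -0.31 for them. At 6 h MTS1 read 3.92 and 3.97 in water and 4.88 and 6.03 in NPA leaves, a difference of 1.51, while SSTLE1 differed by -0.09 and RSI-1 by -0.52. Among the leaf markers CAB5 was lower under NPA at 12 h, by -0.86, and the others differed by -0.25 and -0.16. The part of these shifts in the selection was not tested. No fruit or flower marker was matched. In leaf tissue, fewer cells of a type and less RNA per cell cannot be told apart.

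Of the 238 probe sets that were at least 0.5 higher under NPA in both 12 h pairs (2.83% of all), 96 were at least 0.5 higher in both 6 h pairs as well. A further 55 lay between, and 87 were members. Only 4 members had a gene symbol in the platform annotation (4.6%, against 8.96% of all probe sets), and the other 83 are unnamed here. Among 20 gene lists for pathways of leaves, 1 list, cell wall enzymes, held a member. A second list, of auxin and gibberellin genes, had held LOC543829, which was taken out after the values were seen because nothing in the annotation placed it there. None of the 11 probe sets for pathogenesis-related proteins was a member, although 8 met the 12 h limit, and the same was true of 5 of 17 for jasmonate and wound genes and 2 of 5 for phosphate starvation genes. Further lists without a member had such probe sets too, among them 3 of 20 for nitrogen, amino acids and polyamines and 3 of 21 for sugar and starch. With 87 members among 8404 probe sets, and only 4 with a symbol to match, a list without a member is no result about its pathway.

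**Figure D1:**
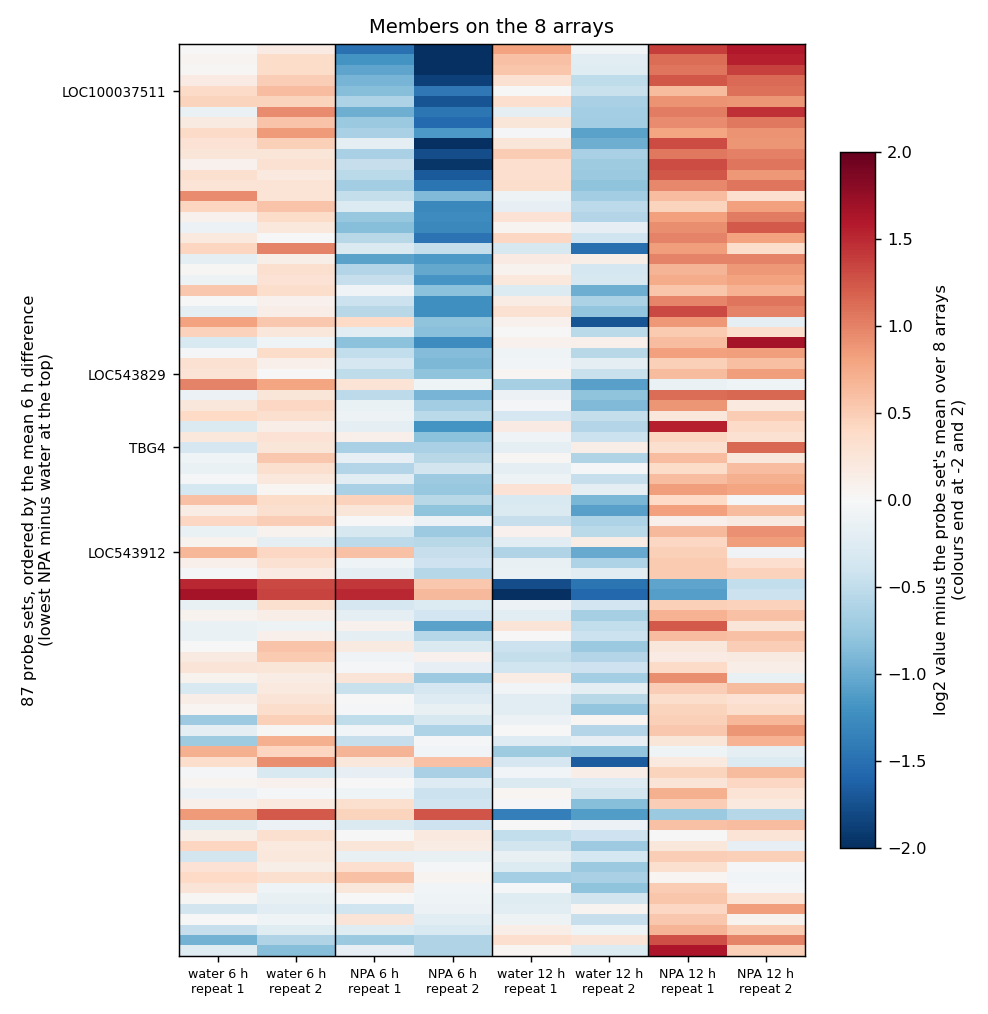
Each line is 1 of the 87 probe sets and each column 1 array, coloured by the log2 value minus that probe set's mean over the 8 arrays; colours end at -2 and 2, and 5 probe sets pass these ends. Lines are ordered by the mean 6 h difference, so the upper lines show blue NPA 6 h arrays, and the NPA 12 h arrays are red in most lines.

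Members did not share 1 order of the 4 groups. NPA 12 h had the highest mean for 70 members (20.6% of all probe sets) and water 6 h for the other 17 (23.3%). The lowest mean was that of NPA 6 h for 50 members (29.8% of all), of water 12 h for 33 (21.6%) and of water 6 h for 4 (24.2%). The rule sets NPA above water at 12 h, so water 12 h could not be the highest nor NPA 12 h the lowest. The full order of NPA 12 h, water 6 h, water 12 h and NPA 6 h, from high to low, held for 39 members. The rule fixed part of that order, and its share over all probe sets was not counted, so the 39 are only a description. Relative to each probe set's own mean over the arrays, the median member stood at 0.07 in repeat 1 and 0.28 in repeat 2 of water at 6 h, and at -0.21 and -0.62 in the NPA 6 h arrays. It stood at -0.06 and -0.55 in the water 12 h arrays and at 0.61 in both NPA 12 h arrays. The same medians over all probe sets lay between -0.03 and 0.04. Both NPA 12 h arrays were thus high to the same degree, while among the low arrays those of repeat 2 were the lower.

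The lowest values of members fell unevenly on the arrays. The second NPA 6 h array was the lowest of the 8 for 45 members (14.6% of all probe sets) and the second water 12 h array for 26 (14.9%). The 6 h difference was lower in repeat 2 than in repeat 1 for 79 members (54.2% of all probe sets), with medians of -0.27 in repeat 1 and -0.87 in repeat 2. The 12 h difference was larger in repeat 2 for 71 members (52.8%), with medians of 0.63 and 1.00. The part of these arrays in the selection was not tested. With the rule applied to 1 repeat at a time, 130 probe sets met it in repeat 1 and 492 in repeat 2.

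The mean 12 h difference ran from 0.50 to 1.68 among members, with a median of 0.86, against -0.03 over all probe sets. The mean 6 h difference ran from -2.05 to 0.17 with a median of -0.53, against -0.01 over all. These values chose the members, so no test is given for the members on them. Both NPA 12 h arrays lay above both water 12 h arrays for 83 members (17.1% of all probe sets) and above all other 6 arrays for 54 (6.22%). Both NPA 6 h arrays lay below both water 6 h arrays for 57 (25%). Over the whole table, limma at an adjusted p under 0.05 called 1 probe set between NPA and water at 12 h (0.0119%) and 14 at 6 h (0.167%). With the repeat as a block it called 108 at 6 h (1.29%) and 0 at 12 h (0%), where 1537 (18.3%) had an unadjusted p under 0.05. For the 12 h effect minus the 6 h effect 0% of all probe sets passed with or without the block, and 13.4% had an unadjusted p under 0.05 without it.

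At the 12 h limit, the nearest members had a smaller 12 h difference of 0.50, and the nearest probe sets left out, a pair from the same sequence cluster, had 0.49. At the 6 h limit, the nearest members had a larger 6 h difference of 0.24, and the nearest probe sets left out had 0.26 and 0.27.

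**Figure D2:**
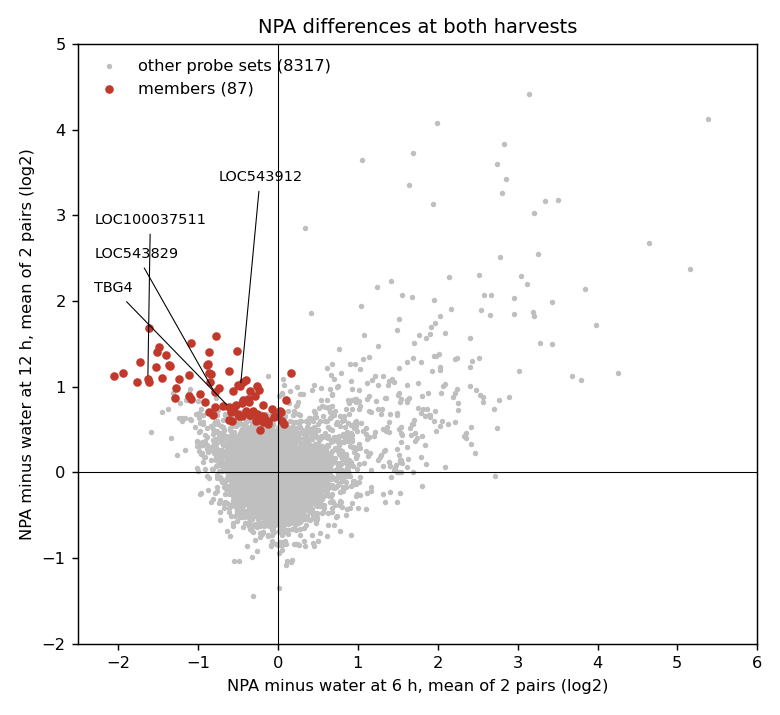
Each point is a probe set, with NPA minus water at 6 h (horizontal, log2) and at 12 h (vertical, log2), each the mean of 2 pairs; the 87 members are red and the other 8317 probe sets grey. Members spread from -2.05 to 0.17 at 6 h, and grey points at the upper right are probe sets that were higher at both times.

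The member with the best known product was TBG4, a beta-galactosidase that acts on galactan side chains of cell wall pectin and is known from fruit softening. TBG4 read 7.39 and 7.97 in the water 6 h arrays of repeats 1 and 2 and 7.07 in both NPA 6 h arrays. It read 7.53 and 7.86 in the water 12 h arrays and 8.04 and 8.87 in the NPA 12 h arrays. NPA was thus lowest at 6 h and highest at 12 h, with no overlap between NPA and water at either time, while water leaves held about the same level. The 12 h difference was 0.51 and 1.01 in the repeats, with a mean of 0.76 (SE 0.31, n = 2 per group), or 1.69-fold, and the 6 h difference was -0.32 and -0.90.

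LOC543912 carries the RefSeq synonym ADCS, aminodeoxychorismate synthase, which makes the precursor of p-aminobenzoate for folate synthesis. Its values were 5.96 and 5.72 in water and 5.89 and 4.85 in NPA leaves at 6 h, and 4.70 and 4.30 in water and 5.78 and 5.23 in NPA leaves at 12 h. The water 12 h arrays were the lowest of the 8, and both NPA 12 h arrays stayed within the range of the 6 h arrays. The NPA excess at 12 h, 1.08 and 0.93 in the repeats (mean 1.01, SE 0.36, n = 2 per group, 2.01-fold), therefore came with a lower water level and not with an NPA level above those at 6 h. From 6 h to 12 h water leaves changed by -1.34 and NPA leaves by 0.14.

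LOC543829 and LOC100037511 have no role given in the annotation used here. LOC543829 read 8.64 and 8.35 in water and 7.85 and 7.55 in NPA leaves at 6 h, then 8.40 and 7.91 in water and 8.99 and 9.19 in NPA leaves at 12 h. NPA was below water in both 6 h pairs, by 0.79 and 0.80, and above it in both 12 h pairs, by 0.59 and 1.28 (mean 0.94, SE 0.21, n = 2 per group, 1.91-fold). LOC100037511 read 6.22 and 6.46 in water and 5.0 and 4.42 in NPA leaves at 6 h, then 5.84 and 5.40 in water and 6.48 and 6.94 in NPA leaves at 12 h. Its 6 h differences of -1.22 and -2.04 were the lowest among the 4 members with a symbol, and its 12 h differences were 0.64 and 1.54 (mean 1.09, SE 0.27, n = 2 per group, 2.13-fold). For both genes the NPA 6 h arrays were the lowest and the NPA 12 h arrays the highest of the 8.

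**Figure D3:**
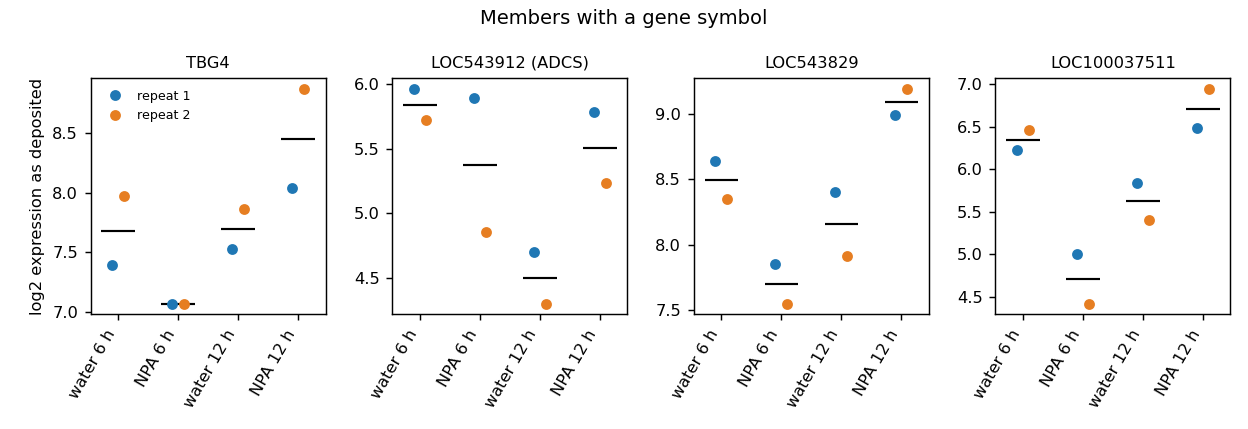
Log2 expression of the 4 members with a gene symbol on each array (points, blue for repeat 1 and orange for repeat 2) with group means of 2 arrays (bars); each panel has its own vertical scale. In TBG4, LOC543829 and LOC100037511 the NPA points are lowest at 6 h and highest at 12 h, and in LOC543912 (ADCS) the water 12 h points are lowest.

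TBG4 is 1 of 7 tomato beta-galactosidase genes with a probe set, and the other 6 were not members. The mean 12 h difference was 0.44 for TBG5, whose 6 h difference of -0.60 was close to that of TBG4, but its repeat 1 value of 0.19 missed the 12 h limit. It was 0.19 for TBG1, 0.06 for TBG2, 0.03 for TBG6, -0.17 for TBG3 and -0.20 for TBG7. Of the 26 genes in the cell wall list, 8 were above water in both 12 h pairs, against 29.5% of all probe sets, and TBG4 alone reached 0.5 in both. The list's median 12 h difference was 0.03 and its median 6 h difference -0.17. The list members with the largest mean 12 h differences beside TBG4 were EXP1, an expansin, at 0.60, CELLULASE at -0.52, PMEU1, a pectin methylesterase, at 0.47 and tXET-B2, a xyloglucan endotransglycosylase, at 0.45. In repeats 1 and 2 these were 0.79 and 0.40 for EXP1, -0.83 and -0.21 for CELLULASE and 0.47 in both for PMEU1. The repeats of tXET-B2 differed in sign, at 1.01 and -0.11 (SE 1.00), so its mean shows no shared direction. No gene of the cell wall list passed between NPA and water at 12 h in limma, where 1 of all 8404 probe sets did (0.0119%).

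Among unnamed members the largest mean 12 h differences were 1.68, 1.60, 1.51, 1.47 and 1.42. The probe set with 1.68 read 5.04 and 6.11 in water and 4.20 and 3.73 in NPA leaves at 6 h, then 4.97 and 4.50 in water and 6.19 and 6.64 in NPA leaves at 12 h. The probe set with 1.60 read 8.52 and 8.88 in water and 8.12 and 7.72 in NPA leaves at 6 h, then 8.52 and 7.84 in water and 9.76 and 9.79 in NPA leaves at 12 h. In both, NPA lay below water at 6 h and above every other array at 12 h, and the second water 12 h array lay below the first. For the probe set with 1.51 the highest array was a water 6 h array, at 8.54, and the NPA 12 h arrays read 8.39 and 7.90 against 7.23 and 6.04 in water.

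Members can be described by their 6 h values in 3 kinds, whose 12 h values are given with no test, since the rule used and limited both. The 44 members at least 0.25 below water in both 6 h pairs had a median 12 h difference of 1.07, between 0.60 and 1.68, and 3 of the 4 with a symbol were among them. The 10 members within 0.25 of water in both 6 h pairs had a median 12 h difference of 0.65, between 0.57 and 1.17, and none had a symbol. The other 33, LOC543912 among them, had a median of 0.74. From 6 h to 12 h the median member changed by -0.43 in water and by 0.98 in NPA leaves, against 0.02 in each over all probe sets. Both water 12 h arrays lay below both water 6 h arrays for 43 members (31.4% of all probe sets) and above them for 3 (35.2%). Since the rule used the same arrays, these within-treatment changes are descriptions.

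Some members share a target. In Affymetrix names, probe sets whose identifiers begin with the same cluster number were designed on related sequences, and the 87 members fell into 81 such clusters, with 2 members each in 6 of them. In 1 cluster were the members with the highest mean levels, which had 12 h differences of 1.05 and 1.11 and 6 h differences of -1.62 and -1.45. The pair of another cluster had 1.16 and 1.12 at 12 h and the lowest 6 h differences of the set, -1.94 and -2.05. A further 7 probe sets of member clusters were not members. Of these, 6 were above water in both 12 h pairs (29.5% of all probe sets), 3 of them by at least 0.5 in both (2.83% of all). Mean 12 h differences of the 7 ran from 0.06 to 0.93 with a median of 0.72. They read sequences related to those of chosen members on the same arrays, so they are no independent support. The lowest, at 0.06, belonged to the cluster of a member at 1.17.

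Members were mostly dim. Averaged over the 8 arrays, their levels ran from 4.66 to 11.24 with a median of 7.54, against a median of 8.80 over all probe sets. Only 11 members (12.6%) lay above that median, and 43 (49.4%) lay below the lower quartile of all levels. The 5 unnamed members with the highest mean levels were the pair of 1 cluster described above, at 11.24 and 10.95, and others at 9.52, 9.45 and 9.42. The standard error of the harvest difference described next had a median of 0.19 among members and 0.12 over all probe sets. No detection calls were used, so it is not known which members were above background, and the part of low signal in the selection was not tested.

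The harvest difference averaged over water and NPA leaves was the contrast the rule did not use, and it asked whether the level averaged over both sprays differed between 6 h and 12 h. A change in NPA leaves alone can pass it. In limma 38 members passed (43.7%), close to the 38.9% called among all probe sets. Of these, 28 were higher at 12 h (32.2%, against 20.9% of all) and 10 lower (11.5%, against 17.9%), each in the same direction in both repeats. By group means, all 28 were higher at 12 h in NPA leaves, but in water leaves 12 were higher and 16 lower, with median changes of 1.71 in NPA and -0.06 in water. The 10 were all lower at 12 h in water leaves and 8 of them in NPA leaves. The NPA 6 h arrays, low by the choice of most members, enter the NPA change, so these values by treatment carry no test. The median member was 0.39 higher at 12 h, with 0.43 in repeat 1 and 0.32 in repeat 2, against 0.03 over all probe sets. With the repeat as a block 54 members passed (62.1%), against 53.4% of all probe sets. The slight excess of members over all probe sets depended on single arrays. The share of members that passed fell below that of all probe sets when any 1 of 5 arrays was left out. These were water 6 h repeat 1, NPA 6 h repeat 2, water 12 h repeat 1 and NPA 12 h repeats 1 and 2. It stayed above when water 6 h repeat 2, NPA 6 h repeat 1 or water 12 h repeat 2 was left out. With 1 array left out the contrast is no longer balanced against the rule.

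**Figure D4:**
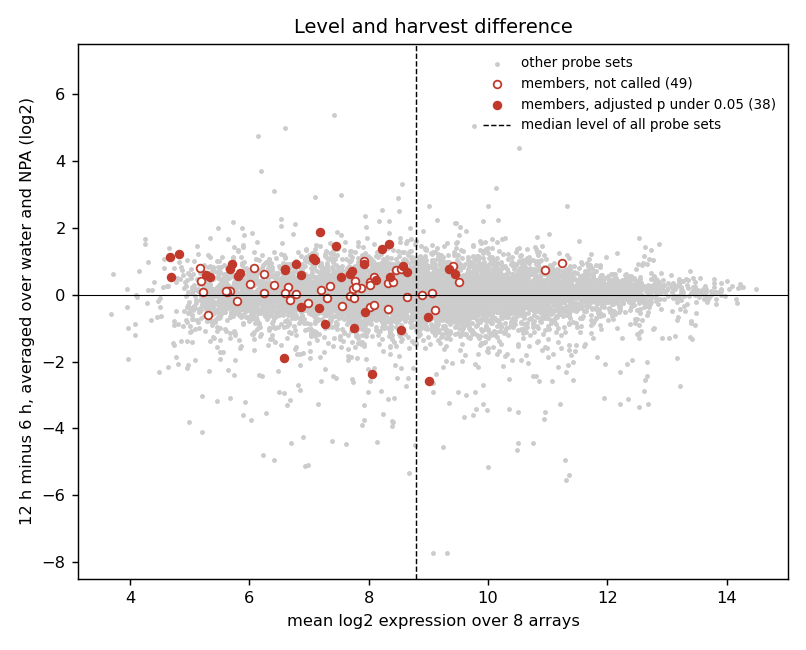
Each point is a probe set, with its mean log2 expression over 8 arrays (horizontal) and its 12 h minus 6 h difference averaged over water and NPA (vertical, log2); filled red points are the 38 members that passed, open red points the 49 that did not, and grey points the other probe sets. Most members lie left of the dashed line at the median level of all probe sets, and the 3 lowest red points are members with falls between -2.58 and -1.89.

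The largest positive averages among unnamed members were those of the cluster pair with the lowest 6 h differences, at 1.87 (SE 0.27, limma adjusted p = 0.0029) and 1.51 (SE 0.29, adjusted p = 0.00825), and of another probe set, at 1.45 (SE 0.12, adjusted p = 0.000499). The pair changed by 0.29 and -0.04 in water and by 3.46 and 3.06 in NPA leaves, whose 6 h arrays were the low ones. The last probe set read 6.50 and 6.85 in water and 6.71 and 6.84 in NPA leaves at 6 h, then 7.79 and 7.71 in water and 8.74 and 8.44 in NPA leaves at 12 h. It was thus level at 6 h and higher at 12 h in both treatments, further under NPA. The largest falls were -2.58 (SE 0.25, adjusted p = 0.000877), -2.39 (SE 0.23, adjusted p = 0.00081) and -1.89 (SE 0.20, adjusted p = 0.00111). The probe set at -2.58 read 10.67 and 10.36 in water and 10.51 and 9.65 in NPA leaves at 6 h, and 6.94 and 7.44 in water and 7.90 and 8.58 in NPA leaves at 12 h. All 12 h arrays lay below all 6 h arrays, so its NPA excess at 12 h was a smaller fall than in water. The probe set at -2.39 showed the same order, and its suffix (_s_at) marks probes shared by several transcripts.

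Of the 4 members with a symbol, 3 passed as higher at 12 h, as did 20.9% of all probe sets. With only 4 such members, this count is no result about them as a group. The average for TBG4 was 0.70 higher (SE 0.22, limma adjusted p = 0.0454), 0.56 in repeat 1 and 0.85 in repeat 2, made up of 0.02 in water and 1.39 in NPA leaves. For LOC100037511 it was 0.64 (SE 0.19, adjusted p = 0.037), made up of -0.72 in water and 2.0 in NPA leaves. For LOC543829 it was 0.53 (SE 0.15, adjusted p = 0.0332), made up of -0.34 in water and 1.39 in NPA leaves. The averages of both were positive in each repeat, although the level in water leaves was lower at 12 h. LOC543912 stood at -0.60 (SE 0.26, adjusted p = 0.107) and passed as lower with the repeat as a block (adjusted p = 0.0146) and without the second NPA 6 h array (adjusted p = 0.0245). The average for TBG4 stayed at 0.70 without NPA 6 h repeat 1 or repeat 2, and that for LOC543829 was 0.60 without water 6 h repeat 1. Leaving out an array also leaves fewer to estimate the spread, and the other calls did not hold throughout. LOC100037511 and LOC543829 lost theirs when any 1 of water 6 h repeats 1 and 2, NPA 6 h repeat 2, water 12 h repeat 1 and NPA 12 h repeat 2 was left out, with adjusted p from 0.0561 to 0.116. TBG4 lost its call when any 1 array other than water 6 h repeat 2 and NPA 12 h repeat 1 was left out, with adjusted p from 0.0675 to 0.136, and also with each array centred on its median (0.052). In the cell wall list of 26 genes, 5 passed as higher (20.9% of all probe sets) and 3 as lower (17.9%), with a median of -0.05. These counts are no result about the list. The average was 4.40 for TBG3 (adjusted p = 0.000636), -1.16 for TBG7 (adjusted p = 0.000943) and -0.95 for TBG6 (adjusted p = 0.00529), while TBG1 at 0.22, TBG2 at 0.52 and TBG5 at -0.35 did not pass.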

How the data were processed

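The deposited table holds 1 log2 value per probe set and array, made by the authors with RMA per the submitters' processing notes. Its version is not given in the sources used here, nor are its settings. The log2 scale was taken from the range of 2.68 to 14.6. Of 8488 probe sets, 84 controls were left out and 8404 tested. The platform annotation gave 753 of them 1 gene symbol and 7651 none, and 739 of the 753 identifiers were found in a RefSeq table of assembly SLM_r2.1. No coordinates or sequences were used.

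The 87 members and the 20 gene lists were chosen with earlier results of these data known. Lists were matched by symbol and RefSeq synonym. Gene names in the text followed a rule: every member with a symbol, unnamed members by largest 12 h difference, highest level and largest harvest change, and up to 4 list genes by 12 h difference. The beta-galactosidase family is given whole outside it. That rule was to name members without a symbol by probe set identifier, and the text gives them by rank and value instead. After the values were seen, the member LOC543829 was taken out of the auxin and gibberellin list for want of a basis, so 1 list in place of 2 holds a member.

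With limma 3.58.1 (R 4.3.3), lmFit and eBayes estimated the 4 group means from the 8 arrays with 4 residual and 2.55 prior degrees of freedom, and with Benjamini-Hochberg adjustment over 8404 probe sets. The harvest contrast is orthogonal to the NPA differences of the rule when arrays vary alike, but the spread behind its p-values comes from the same arrays. The number of arrays limits precision, and p-values reflect only how these pools varied.

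Arrays of the same repeat deviated alike from their group means (correlations from 0.316 to 0.596), and the design text describes repeats of the whole experiment. The repeat as a block was an alternative. On simulated data for the harvest contrast, with 200 changes among 8404 probe sets, 29.2% of changes of 0.5, 87.6% of 1 and 98.4% of 2 were recovered, with 8.6 false calls per run. The simulated arrays varied independently, with no repeat or NPA effect, whereas in the data 38.9% of probe sets were called and repeats deviated alike. These rates therefore need not hold for the data. Plots came from matplotlib 3.10.9 (Python 3.11.15).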

Additional observations from a re-analysis of the deposited data

Results flagged for a closer look

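NPA stood below water in both 6 h pairs for 66 members (36.1% of all probe sets), and the rule put every member above water in both 12 h pairs. The sign of the NPA difference thus changed between the 2 harvests for these 66, as a description only. Among them were all 4 members with a symbol, although LOC543912 differed at 6 h by only -0.07 in repeat 1, against -0.87 in repeat 2. The 12 h effect exceeded the 6 h effect by 2.72 on the log2 scale for LOC100037511, by 1.73 for LOC543829, by 1.48 for LOC543912 and by 1.37 for TBG4. The rule that chose the members used this difference, so no call for them is read from it. In limma no probe set of the whole table, members included, passed for it, with or without the repeat as a block, and 1123 reached an unadjusted p under 0.05 without it.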

How the results depend on the processing

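The count of 87 members became 86 after quantile normalization, with 73 of the 87 shared, and 97 with each array centred on its median, with 86 shared. It was 161 and 46 with 12 h limits of 0.4 and 0.6, 71 and 103 with 6 h limits of 0.1 and 0.4, and 249 with the rule on group means in place of both pairs. Only 11 had a mean level above the median. Chosen after seeing the data, the rule on repeat 1 alone gave 130, on repeat 2 alone 492, and with members held within 0.25 of water at 6 h on either side 10. The count of 3265 probe sets that changed between harvests was 1905 when dim probe sets below the median level were dropped, 705 with a minimum of 1 on the log2 scale, and between 2111 and 2927 with 1 array left out. The 38 members among them were 6 and 12 under those settings, between 20 and 39 with 1 array left out, and 54 with the repeat as a block (62.1%, against 53.4% of all probe sets), and within 1.5 times 38 under the other settings. Only 11 members lay above the median level, so the 6 were 54.5% of them, against 45.4% of all probe sets above it. The 12 were 13.8% of the 87 members, against 8.39% of all probe sets. Neither share of members thus fell below that of all probe sets. Apart from LOC543912, the block changed no call among the members with a symbol, and no setting turned their direction. A lone array was taken to vary as the other groups do. The causes of these shifts were not tested. With 2 arrays per group and no detection calls, changes of dim probe sets are the least certain.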

Other observations

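The mirrored rule, at least 0.5 lower under NPA in both 12 h pairs and not lower by 0.25 or more in either 6 h pair, was met by 54 probe sets. With the times exchanged, 106 were at least 0.5 higher under NPA in both 6 h pairs and less than 0.25 higher in both 12 h pairs. These counts are descriptions of the deposited values and carry no test.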
